A study of Homo sapiens with 4 samples.

Results

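The replication-dependent histone genes of the HIST1, HIST2 and HIST3 clusters were examined in FaDu cells, an established line from a squamous carcinoma of the hypopharynx. The members were the rows of the deposited expression table whose gene name starts with HIST1H, HIST2H or HIST3H and whose locus lies on a placed chromosome. This rule gave 87 of the table's 62077 rows, and 17 further rows of that name pattern lie on patch sequences and were not counted. Of the 87 members, 66 carry a HIST1 name, of which 64 lie on chromosome 6 and 2, the pseudogenes HIST1H2BPS3 and HIST1H2APS6, on chromosome 13. The 17 HIST2 and 4 HIST3 members lie on chromosome 1. By histone type there were 8 H1, 22 H2A, 26 H2B, 16 H3 and 15 H4 members. By name or annotation 16 members were counted as pseudogenes, among them HIST2H3PS2, which is annotated as protein-coding. HIST2H2BA, which had no match in the annotation, was not counted as one.

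TET1, the dioxygenase that oxidizes 5-methylcytosine, was knocked down with a lentiviral short hairpin RNA in pLKO.1-puro, which the labels call TET1-si, and control cells carried a scrambled sequence. Cells were kept in normoxia or for 19 h in hypoxia at 1% oxygen with 5% CO2. The 4 groups, N-scr and N-si (normoxia) and H-scr and H-si (hypoxia), had 1 library each, so no difference below has a replicate check, no test between groups was possible, and intervals cover counting error only. Wherever 4 values are given they stand in the order N-scr, then N-si, then H-scr, then H-si. TET1 itself was at 0.129, 0.0493, 0.331 and 0.122 FPKM, lower in the TET1-si library of each oxygen state. FPKM is the number of fragments divided by exon length and by the mapped total. Between genes it compares levels only as far as the library captures their mRNAs alike, as set out below. On very short loci its length correction is large.

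The epithelial markers EPCAM (102 to 206 FPKM), CDH1 (179 to 399 FPKM) and TP63 (42.1 to 54.8 FPKM) were high in all 4 libraries. The other 5 markers of the squamous epithelial line were also high but lower in each TET1-si library than in the scrambled library of its oxygen state: KRT5 was at 2673, 524, 3993 and 1430 FPKM, KRT8 at 1739, 481, 1903 and 453, KRT18 at 1109, 304, 970 and 227, KRT17 at 1503, 764, 2741 and 1783, and SFN at 242, 165, 318 and 144. What this shift contributes to the histone levels was not tested. Among markers of other cell types, PTPRC (blood cells) and DES (muscle) did not exceed 0.328 FPKM, whereas CD68 lay at 19.8 to 26.8 FPKM and COL1A1 at 5.29 to 37.0 FPKM. The depth recovered from genes with a single exon was 22550000 to 24600000 reads.

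Histones package DNA into nucleosomes: H2A, H2B, H3 and H4 form the core around which DNA winds, and H1 binds the linker DNA. The clustered genes have no introns and are transcribed mainly in S phase, when new DNA needs new histones. Their mRNAs end at a conserved stem-loop, bound by SLBP and cut with the help of the U7 snRNA, instead of carrying a poly(A) tail. Some of these genes can also make longer, polyadenylated transcripts, which are known from cells that have left the cycle. An mRNA library of the kind used here enriches for poly(A) tails, so the levels reflect a minority form of most members.

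The stem-loop is what sets these genes apart from other mRNAs. A search of hg19 for GGNNNTTNNNANNNCC with pairing stems, on the coding strand in the 150 bases after the stop codon, found it in 64 of 66 coding members (97.0%), all but HIST1H2AG and HIST1H2AK. None of 3046 other coding genes of chromosomes 1 and 6 held a match. The 64 matches took 8 forms, and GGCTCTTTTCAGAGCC alone made up 39 of them. The sequences below belong to the members on which the results turn, with the stem-loop in capitals between 5 flanking bases on each side, read 5′ to 3′ on the coding strand of hg19.
HIST3H2A: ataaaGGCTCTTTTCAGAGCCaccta
HIST3H2BB: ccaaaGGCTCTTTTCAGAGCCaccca
HIST1H1C: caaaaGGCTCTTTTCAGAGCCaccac
HIST1H2BH: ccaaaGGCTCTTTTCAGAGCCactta
HIST1H2BK: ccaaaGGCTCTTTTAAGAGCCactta
HIST1H4J: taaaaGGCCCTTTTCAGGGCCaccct
HIST2H2AC: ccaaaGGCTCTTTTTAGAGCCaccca
HIST2H2BE: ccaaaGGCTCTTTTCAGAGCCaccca

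HIST3H2A, HIST1H1C and HIST1H2BH, whose changes differed in direction, share the same form of the loop. In the GENCODE v44lift37 annotation, 17 of the 64 members have a transcript that runs more than 20 bases past the stem-loop. Their median mean level over the 4 libraries was 1.77 FPKM, and 11 of the 17 reached a mean of 1 FPKM. Among the 47 members annotated to end at the stem-loop, the median was 0.516 FPKM and 11 of 47 reached a mean of 1 FPKM. The ranges overlapped (0 to 107 FPKM and 0 to 41.3 FPKM). Split by the loci of the deposited table instead, the 17 members whose locus runs more than 50 bases past the loop had a median of 0.949 FPKM and the 47 others, HIST3H2A among them, 0.587 FPKM, with 8 of 17 and 14 of 47 at a mean of 1 FPKM. HIST3H2A and HIST3H2BB are annotated 22592 and 4551 bases past their loops, whereas the loci of the deposited table end 5 bases after the loop in both.

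Histone levels were low and uneven. Of the 87 members, 16 were listed at 0 in all 4 libraries, among them 7 pseudogenes, the testis genes HIST1H2AA and HIST1H2BA, and HIST2H2AA4, HIST2H3A, HIST2H3C and HIST2H4B, which have near-identical copies whose reads the authors' counting could split or drop. A mean of at least 1 FPKM over the 4 libraries was reached by 27 members. Just inside this minimum were HIST1H2APS4 (1.10 FPKM), HIST1H2AG (1.09 FPKM) and HIST1H3C (1.04 FPKM), and just outside were HIST1H4A (0.991 FPKM), HIST1H2AK (0.990 FPKM) and HIST1H3E (0.968 FPKM). The 52 short coding loci of 300 bp or more held a median of 15 reads over all 4 libraries together, and 32 of them had under 20 reads.

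Summed over all 87 members, the level was 231.9, 193.2, 312.1 and 471.4 FPKM. A single gene set the order of these sums. HIST3H2A took 37.7% of the N-si sum, 15.8% of the H-scr sum and 60.4% of the H-si sum, while in N-scr HIST1H2BH led with 30.3%. Without HIST3H2A the sums were 211.2, 120.4, 262.6 and 186.8 FPKM, so both TET1-si libraries then stood below the scrambled library of the same oxygen state. By type, H2A members summed to 45.8, 89.9, 118.0 and 322.9 FPKM and H2B members to 129.3, 78.0, 113.2 and 97.9 FPKM. H3 members reached 6.92 to 12.3 FPKM and H4 members 7.26 to 18.5 FPKM, so H2A and H2B genes held most of the captured signal. Nucleosomes take up the 4 core types in equal numbers, but an mRNA library holds a minority form of most members.

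**Figure D1:**
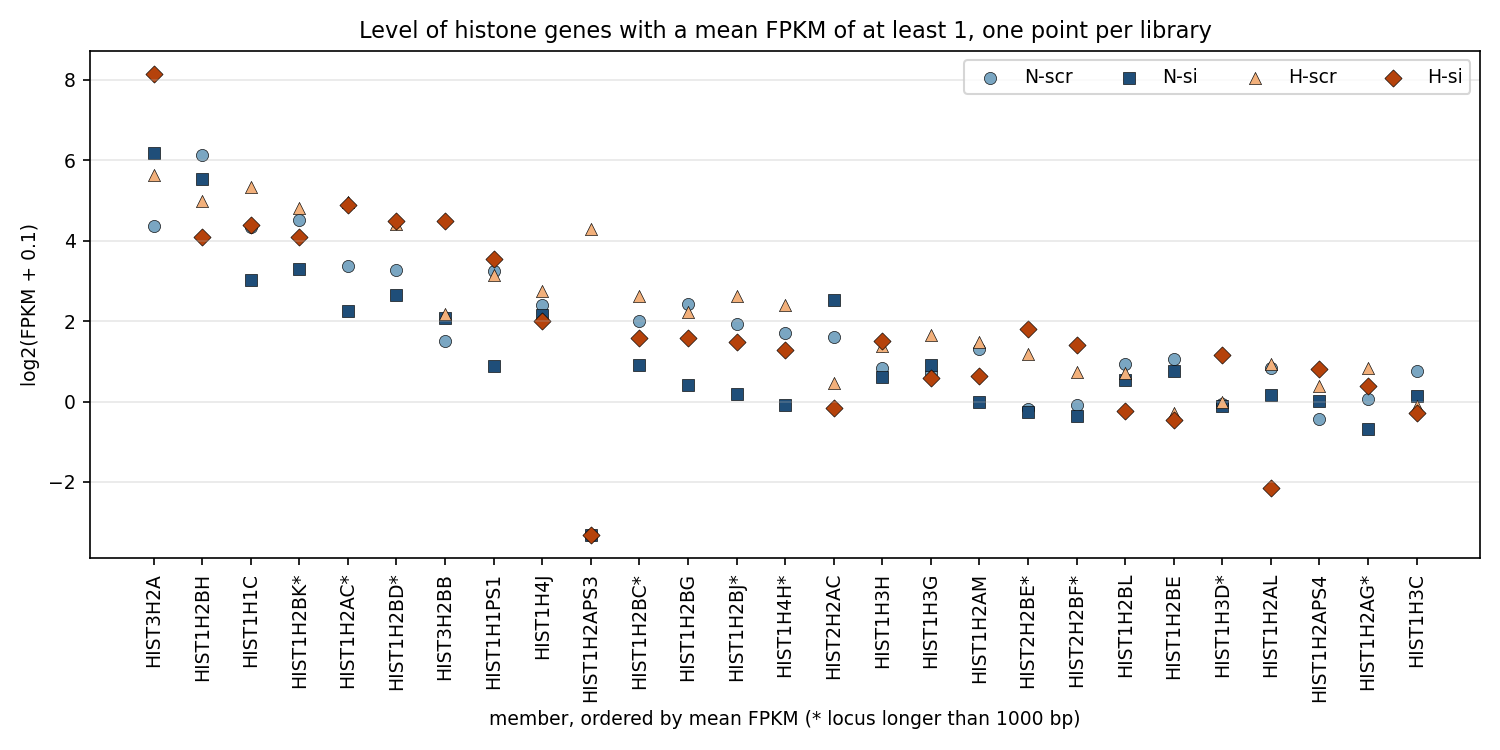
Level of the 27 histone genes with a mean of at least 1 FPKM, ordered by mean, as log2(FPKM + 0.1), with 1 symbol per library (N-scr circles, N-si squares, H-scr triangles, H-si diamonds) and an asterisk for loci longer than 1000 bp. HIST3H2A stood highest in H-si at 284.6 FPKM, HIST1H2BH stood highest in N-scr at 70.4 FPKM, and HIST1H2APS3 was above 0 in H-scr only.

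Each of 4 comparisons sets 1 library against another: hypoxia against normoxia in scrambled and in TET1-si cells (the hypoxia response), and TET1-si against scrambled under either oxygen state (the TET1-si response). Changes are differences of log2(FPKM + 0.1), and a member is called where the change is at least 2-fold. The comparisons share libraries in part, so they are given side by side.

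In the hypoxia response of scrambled cells, 5 of 27 members were at least 2-fold higher, where 12.9% of all 15057 rows with a mean of at least 1 FPKM were, and 3 were at least 2-fold lower, where 4.53% of all rows were. The median change of the members was 0.63 on the log2 scale and that of all rows 0.05. In TET1-si cells 13 of 27 were higher and 4 lower after hypoxia, against 12.5% and 8.66% of all rows, with a median of 0.91 for the members and 0.03 for all rows. The share of members called higher after hypoxia was thus near that of all rows in scrambled cells and above it in TET1-si cells. The difference between these responses was 1 or more for 5 members, where 4.87% of all rows reached it, and -1 or less for 4, where 7.86% did, and it was largest for a coding member in HIST3H2BB at 1.76.

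In the TET1-si response under hypoxia, 3 of 27 members were higher and 6 lower, against 12% and 8.35% of all rows, and the medians were -0.62 for the members and 0.10 for all rows. Under normoxia 1 member was higher and 9 were lower, against 12.1% and 5.56% of all rows, with medians of -0.60 and 0.15. The TET1-si libraries thus held lower levels of most members, and HIST3H2A was the 1 member higher by 2-fold in both oxygen states, as 6.51% of all rows were. HIST1H2BJ, HIST1H4H and HIST1H2BC were 2-fold lower in both oxygen states, as 3.06% of all rows were. With a pseudocount of 1 their changes under hypoxia were -0.94, -0.90 and -0.88, so none of the 3 was then called in both states.

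Over the 27 members, the response to hypoxia without and with TET1-si (no library in common) gave a Spearman correlation of 0.58, and over all rows 0.68. The TET1-si responses in both oxygen states gave 0.40 over the members and 0.65 over all rows. These are descriptions across genes, which share depth and clusters and are not independent.

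Among the linker histones, HIST1H1C, which encodes H1.2 (chr6:26055968-26056699 of hg19, minus strand), was the main clustered gene. Its level was 20.2, 8.09, 40.4 and 20.8 FPKM, on 240, 103, 513 and 243 reads. It was higher in hypoxia and lower in TET1-si cells, and H-si stood near N-scr. Hypoxia changed it by 1.00 (log2) in scrambled cells (95% counting interval 0.77 to 1.23) and 1.35 in TET1-si cells (1.03 to 1.71). TET1-si changed it by -0.95 under hypoxia (-1.18 to -0.73) and by -1.31 in normoxia (-1.67 to -0.98). The scrambled hypoxia response lay at the threshold: the ratio of the FPKM values was 2.004, the change in log2(FPKM + 0.1) fell just short of 2-fold, and TPM gave 1.12 and a call. Median-of-ratios scaling gave -1.10 and a call for TET1-si under hypoxia.

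The other clustered H1 genes were close to the floor of the assay. HIST1H1D (H1.3), HIST1H1E (H1.4), HIST1H1B (H1.5) and HIST1H1A (H1.1) held at most 7 reads in any library, and the testis gene HIST1H1T had 1 read in all. No change of these genes was detectable at this depth. The pseudogene HIST1H1PS1, at 9.40, 1.76, 8.78 and 11.5 FPKM, rests on a locus of 206 bp with 10, 2, 10 and 12 reads, where the length correction of FPKM is large.

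The replication-independent linker histone gene H1F0, which encodes H1.0 of resting and differentiated cells and lies outside the clusters, took another course. Its level was 71.1, 174.2, 163.7 and 362.1 FPKM. It was higher in hypoxia and also higher in TET1-si cells, with a TET1-si response of 1.14 (hypoxia) and 1.29 (normoxia), where HIST1H1C was lower. H1FX, another replication-independent H1 gene, was at 25.2, 37.7, 28.8 and 47.1 FPKM and likewise higher in both TET1-si libraries, by less than 2-fold.

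**Figure D2:**
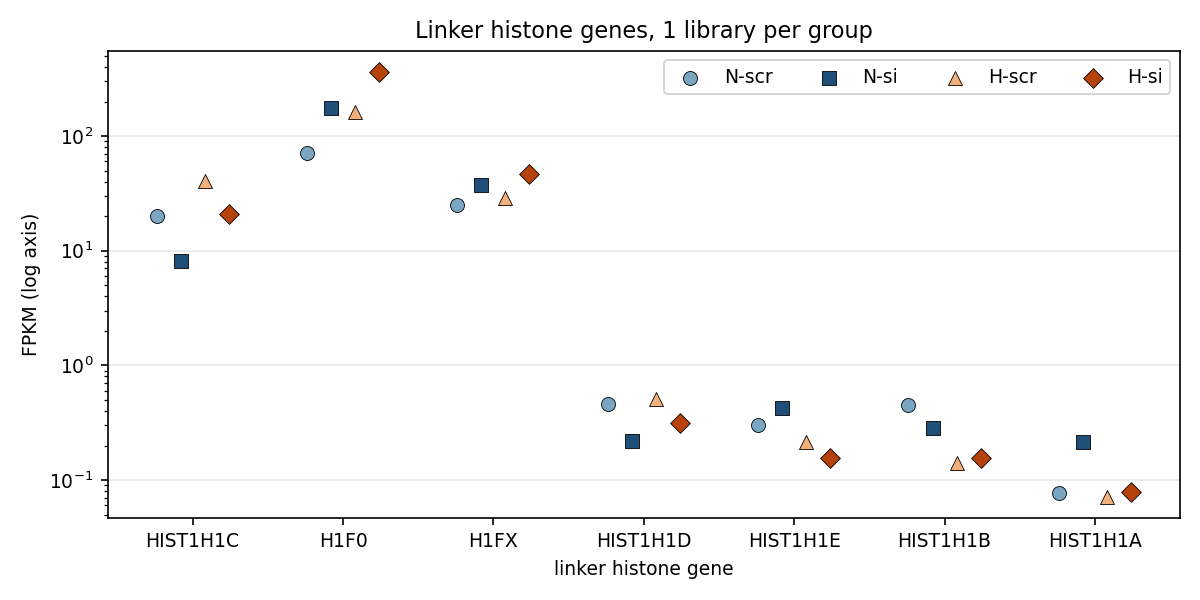
FPKM of linker histone genes on a log axis, with 1 symbol per library, for HIST1H1C, the replication-independent genes H1F0 and H1FX, and 4 low clustered genes. HIST1H1C was lower in each TET1-si library than in the scrambled library of the same oxygen state, while H1F0 was higher, reaching 362.1 FPKM in H-si.

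Among the 27 members with a mean of at least 1 FPKM, the HIST3 pair held the largest rises after TET1-si under hypoxia. HIST3H2A (chr1:228645065-228645560, minus strand) and HIST3H2BB (chr1:228645808-228646259, plus strand) encode an H2A and an H2B and are transcribed away from each other out of a space of 247 bp. HIST3H2A was at 20.7, 72.7, 49.5 and 284.6 FPKM, on 134, 503, 342 and 1802 reads. Both the knockdown and hypoxia went with a higher level, and H-si stood far above the other 3 libraries. The TET1-si response was 5.76-fold by FPKM under hypoxia (log2 2.52, counting interval 2.35 to 2.69) and 3.52-fold under normoxia (log2 1.81, 1.53 to 2.10). The hypoxia response was 3.91-fold in TET1-si cells (log2 1.97, 1.82 to 2.11) and 2.39-fold in scrambled cells (log2 1.25, 0.96 to 1.55).

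Its partner moved the same way on fewer reads. HIST3H2BB was at 2.74, 4.11, 4.44 and 22.6 FPKM, on 15, 24, 26 and 121 reads, so only H-si stood apart. Its hypoxia response was 2.43 in TET1-si cells (1.82 to 3.16) and 0.68 in scrambled cells (-0.27 to 1.72). TET1-si changed it by 2.32 under hypoxia (1.72 to 3.01) and by 0.56 in normoxia (-0.41 to 1.62). The intervals of the 2 smaller responses include 0, and HIST3H3 and HIST3H2BA, the remaining HIST3 members, did not reach a mean of 1 FPKM.

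The promoter window of HIST3H2A is shown because the pair rose while most members did not, next to that of HIST2H2AC, whose pair split in direction. Both are RefSeq windows of GRCh38.p14 from 250 bases before to 50 bases after the start, chr1:228457824-228458123 on the minus strand and chr1:149886668-149886967 on the plus strand. Capitals mark 3 searched motifs on either strand, the CCAAT box, the TATA box written TATAAA, and the octamer ATTTGCAT that POU2F1 binds, and no motifs overlap in these windows.
HIST3H2A: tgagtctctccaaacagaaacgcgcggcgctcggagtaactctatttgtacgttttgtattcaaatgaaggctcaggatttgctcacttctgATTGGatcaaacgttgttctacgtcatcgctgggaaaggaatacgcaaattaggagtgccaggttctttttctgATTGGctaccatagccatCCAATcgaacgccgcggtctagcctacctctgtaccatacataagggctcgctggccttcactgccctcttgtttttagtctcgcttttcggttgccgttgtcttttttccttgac
HIST2H2AC: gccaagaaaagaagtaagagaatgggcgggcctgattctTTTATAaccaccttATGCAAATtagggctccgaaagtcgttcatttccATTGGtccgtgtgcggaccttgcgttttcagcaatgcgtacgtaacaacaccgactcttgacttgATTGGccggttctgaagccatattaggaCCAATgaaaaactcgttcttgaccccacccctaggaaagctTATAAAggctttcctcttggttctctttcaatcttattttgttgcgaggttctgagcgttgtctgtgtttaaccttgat

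Over the 59 members with a window in the RefSeq table, 86.4% held CCAAT, against 35.7% of all 27305 windows, 66.1% held TATAAA against 11.95%, and 40.7% held ATTTGCAT against 1.80%. The HIST3H2A window held 3 CCAAT, no TATAAA and no ATTTGCAT, as did that of HIST3H2BB, which overlaps it. The HIST2H2AC window held 3 CCAAT, 2 TATAAA and 1 ATTTGCAT, and so did that of its partner HIST2H2BE, which changed in the other direction. The windows of HIST1H1C and HIST1H4H, both lower with TET1-si, also held no TATAAA and no ATTTGCAT. What the motifs contribute to the changes was not tested. Windows of partners overlap and are not independent, and the letters alone do not show binding.

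Genes around the HIST3 pair are the local background for its rise. There were 13 rows within 500000 bp of the cluster with a mean of at least 1 FPKM. With TET1-si 5 were higher by 2-fold or more under hypoxia and 5 under normoxia, where 12% and 12.1% of all rows were. None was 2-fold lower in either state. Among the 5, RNA5SP18 was listed at 0 in both scrambled libraries, and C1orf145 and RHOU reached at most 2.23 and 3.19 FPKM. Over all 13 rows the median change with TET1-si was 0.31 (hypoxia) and 0.38 (normoxia). TRIM17, a ubiquitin ligase gene 41.1 kb from the middle of the space between HIST3H2A and HIST3H2BB and on the strand of HIST3H2A, was at 15.4, 76.0, 19.5 and 118.9 FPKM. Its TET1-si response was 2.60 (hypoxia) and 2.30 (normoxia), while its hypoxia response was 0.34 in scrambled and 0.65 in TET1-si cells. RNF187, 29.1 kb away on the other side, changed by 0.31 and 0.38, and TRIM11, 51.1 kb away, by 0.12 and 0.35 after TET1-si (hypoxia, then normoxia). The rise after TET1-si was therefore not particular to the HIST3 histone genes within this interval, nor shared by all of its genes, and what the neighbours contribute to reads at HIST3H2A was not tested.

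**Figure D3:**
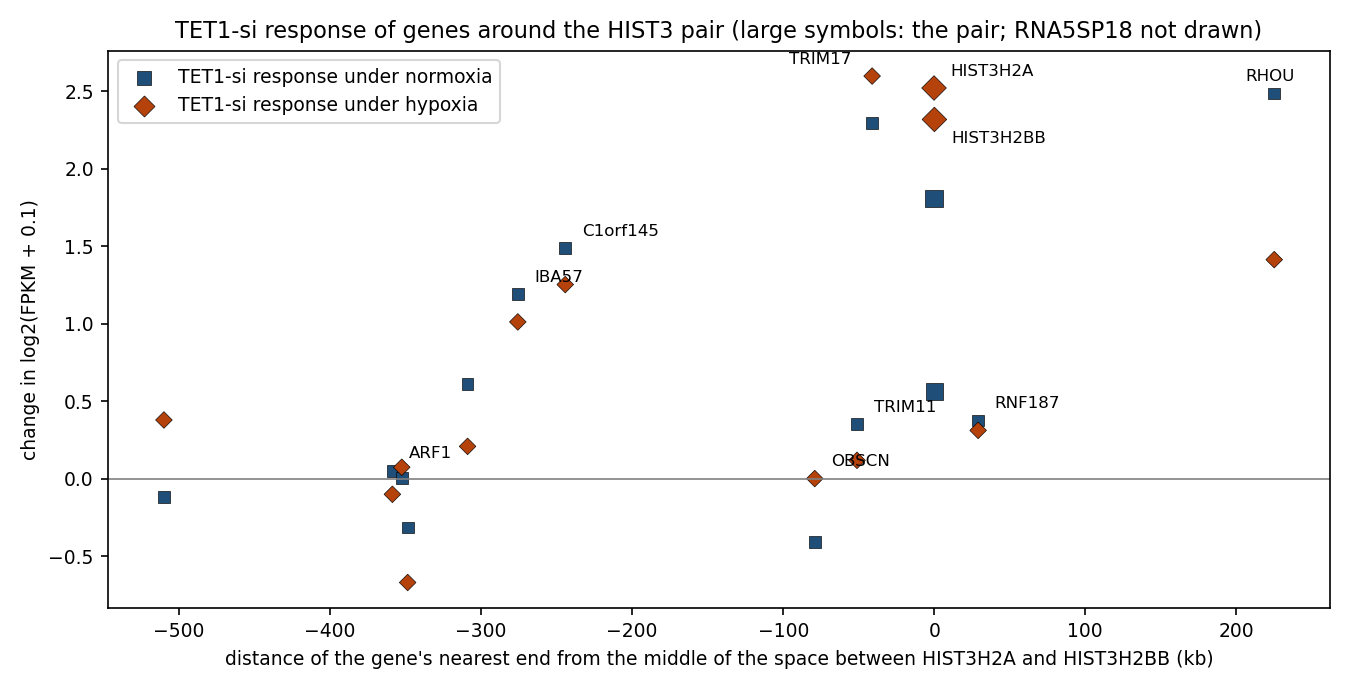
TET1-si response, as the change in log2(FPKM + 0.1), of genes with a mean of at least 1 FPKM around the HIST3 pair, against the distance of their nearest end from the middle of the space between HIST3H2A and HIST3H2BB in kb (squares normoxia, diamonds hypoxia, large symbols the pair). TRIM17 lies at 2.30 and 2.60, near HIST3H2A at 1.81 and 2.52, while RNF187 and TRIM11 lie between 0.12 and 0.38; RNA5SP18, a row of 121 bp listed at 0 in both scrambled libraries, is not drawn.

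HIST1H2BH, an H2B gene (chr6:26251879-26252303, plus strand), went the opposite way. Its level was 70.4, 46.3, 31.4 and 17.0 FPKM, on 340, 240, 163 and 81 reads. It was lower in hypoxia and lower in TET1-si cells, and H-si was the lowest library. The hypoxia response was -1.16 in scrambled cells (-1.44 to -0.88) and -1.44 in TET1-si cells (-1.82 to -1.07). TET1-si changed it by -0.88 under hypoxia (-1.29 to -0.49) and by -0.60 in normoxia (-0.84 to -0.36), short of 2-fold with intervals below 0, although median-of-ratios scaling gave -1.02 under hypoxia.

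HIST1H2BE and HIST2H2AC were the other members at least 2-fold lower after hypoxia in both knockdown states, where 2.34% of all rows were. With a pseudocount of 1 their changes in scrambled cells were -0.80 and -0.79, short of 2-fold. HIST1H2BE was at 1.9999, 1.58, 0.718 and 0.627 FPKM on at most 13 reads, and its intervals include 0. HIST1H2BE therefore gave no change that was detectable at this depth.

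The members with loci longer than 1000 bp in the deposited table are here called extended. All 10 extended members with a mean of at least 1 FPKM were higher in hypoxia, with responses of 0.05 to 1.60 for the scrambled control and of 0.66 to 2.64 for TET1-si cells, where 52.9% and 51.5% of all rows were higher. The lowest of these, HIST1H3D in the scrambled control, turned to -0.06 under median-of-ratios scaling, and the counting intervals of 7 of the 10 included 0 in the scrambled control and those of 5 with TET1-si. In the scrambled control 3 passed 2-fold, where 12.9% of all rows did, and with TET1-si 8 did, where 12.5% of all rows did. With a pseudocount of 1 these numbers were 2 and 4, where 8.22% and 8.56% of all rows passed 2-fold. Of the 17 short members, 10 were higher in the scrambled control and 8 with TET1-si, close to the share of all rows. In the TET1-si response under normoxia all 10 extended members were lower (-1.80 to -0.06), where 39.0% of all rows were lower, and 5 of the 10 intervals included 0.

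HIST1H2AC, an H2A gene annotated 14432 bases past its stem-loop, was at 10.2, 4.68, 31.1 and 29.6 FPKM. Both hypoxia libraries stood above both normoxia libraries, and N-si was lowest. The hypoxia response was 1.60 in scrambled and 2.64 in TET1-si cells, with approximate counting intervals of 1.23 to 2.02 and 2.14 to 3.22, since the reads of extended loci follow from 1 assumed transcript. HIST1H2BD, an H2B gene annotated 12747 bases past its loop, was at 9.62, 6.14, 21.3 and 22.5 FPKM, with hypoxia responses of 1.14 and 1.86. In both genes H-si and H-scr were close, so the lower level in N-si had no counterpart under hypoxia (TET1-si responses of -0.07 and 0.08 under hypoxia).

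HIST2H2BE, an H2B gene annotated 1729 bases past its loop, was at 0.780, 0.729, 2.18 and 3.38 FPKM and was the fourth member 2-fold higher after hypoxia in both knockdown states, where 6.73% of all rows were. With a pseudocount of 1 its hypoxia response was 0.84 in scrambled cells, short of 2-fold, and 1.34 in TET1-si cells. HIST1H2BK, the extended gene with the highest level, was at 23.0, 9.74, 27.9 and 17.1 FPKM. It was lower in each TET1-si library than in the scrambled library of its oxygen state, with TET1-si responses of -0.71 under hypoxia and -1.23 under normoxia. Its hypoxia responses were 0.28 in scrambled and 0.80 in TET1-si cells. HIST1H2BC, HIST1H2BJ and HIST1H4H, the extended genes called lower after TET1-si in both oxygen states, had TET1-si responses of -1.06, -1.15 and -1.13 under hypoxia and -1.09, -1.72 and -1.80 under normoxia, on at most 40 reads a library. The interval of HIST1H2BC under normoxia included 0 (-2.29 to 0.0078). HIST1H3D overlaps HIST1H2AD, and its reads could be shared.

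Divergent H2A and H2B genes share a promoter region, and 10 such pairs were matched, with spaces of 189 to 346 bp. In 4 pairs both partners reached a mean of 1 FPKM. HIST3H2A with HIST3H2BB, HIST1H2BC with HIST1H2AC, and HIST1H2BJ with HIST1H2AG had partners that changed in the same direction in all 4 comparisons. HIST2H2BE with HIST2H2AC, 292 bp apart, did not. In the pairs that agreed, some changes lie within counting error. The approximate intervals of HIST1H2AG include 0 in all 4 comparisons, as does that of HIST1H2AC for TET1-si under hypoxia (-0.35 to 0.20). How often other rows agree in direction was not computed.

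HIST2H2AC (chr1:149858525-149858961, plus strand) was at 2.93, 5.66, 1.28 and 0.796 FPKM, on 15, 31, 7 and 4 reads. It was highest in N-si and low in hypoxia, whereas HIST2H2BE was high in hypoxia. The hypoxia response of HIST2H2AC in TET1-si cells was -2.68 (-4.79 to -1.33) where that of HIST2H2BE was 2.07 (1.68 to 2.78, approximate). In scrambled cells they were -1.14 (-2.73 to 0.19) and 1.38 (0.93 to 2.07). HIST2H2AC is annotated to end 5 bases after its stem-loop and HIST2H2BE far beyond it, and HIST2H2AC also differs in the loop itself, as printed above. What these differences have to do with the split of the pair was not tested.

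Most short loci of HIST1 had too few reads to be read alone, so their reads were added up. The sum was taken over 40 short coding members, leaving out HIST1H2BH and HIST1H1C, whose reads would have set it. This set was chosen after values were seen. It held 236, 148, 264 and 116 reads, or 103, 60.2, 107 and 51.4 per 10000000 reads. The 2 TET1-si libraries were low and the 2 scrambled libraries high, whatever the oxygen state.

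For these 40 genes TET1-si changed the sum by -1.06 under hypoxia (95% counting interval -1.39 to -0.74) and by -0.77 in normoxia (-1.08 to -0.47). The hypoxia response was 0.06 in scrambled cells (-0.19 to 0.32) and -0.23 in TET1-si cells (-0.59 to 0.13), so no change with oxygen was detectable. With HIST1H2BH and HIST1H1C the TET1-si responses were -0.97 and -0.83. By gene, 26 of 40 had fewer reads at equal depth and 7 had more in H-si than in H-scr. In N-si against N-scr, 28 had fewer and 7 more. Of all rows with a mean of at least 1 FPKM, 42.9% and 39.0% were lower in these comparisons. Most of the 40 genes lie below that level, and no share was computed for rows as shallow. No gene held more than 11.9% of the reads in the baseline library of a comparison. HIST1H2BG alone went from 28 to 7 reads between N-scr and N-si, so an even spread of the fall is not shown.

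The fall after TET1-si appeared in each core type. Under hypoxia the summed reads changed by -1.62 for H2A (-2.31 to -0.97), -0.90 for H2B (-1.64 to -0.20), -0.69 for H3 (-1.31 to -0.08) and -1.23 for H4 (-2.10 to -0.41). Under normoxia they changed by -1.01 (-1.65 to -0.40), -0.89 (-1.51 to -0.28), -0.64 (-1.30 to 0.01) and -0.76 (-1.56 to 0.01), so for H3 and H4 the interval reached 0. The intervals of the 4 types overlap. The first subcluster of HIST1 (25 genes) changed by -1.04 under hypoxia and -0.91 under normoxia and the second (15 genes) by -1.08 and -0.62. The 7 short coding loci of HIST2 held 28, 41, 30 and 20 reads and gave no interval below 0 for TET1-si.

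**Figure D4:**
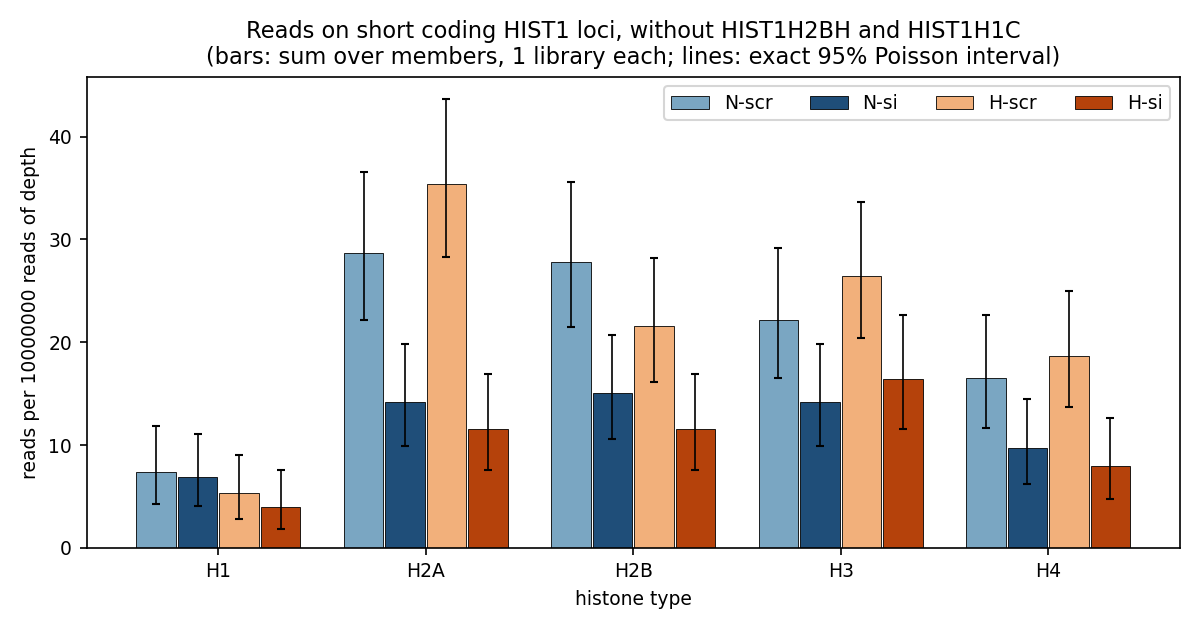
Reads on 40 short coding HIST1 loci, summed by histone type and scaled to 10000000 reads, with 1 bar per library and exact 95% Poisson intervals as lines. For H2A, H2B, H3 and H4 both TET1-si bars lie below both scrambled bars, while the 5 H1 loci held 9 to 17 reads a library.

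Of the 20 short loci with at least 20 reads over the 4 libraries, 4 had a counting interval below 0 and 2 above 0 for TET1-si under hypoxia, where 12.4% and 24% of 450 single-exon rows with as many reads did. Under normoxia the numbers were again 4 and 2, against 11.6% and 16.7%. After hypoxia 1 was lower and 3 were higher in scrambled cells, against 6.44% and 20.9%, and 3 were lower and 3 higher in TET1-si cells, against 8.22% and 27.8%. Gene by gene, most members were thus too shallow to read.

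S-phase genes were compared because the clustered histone genes are transcribed in S phase. Of the 28 genes listed, all were lower in H-si than in N-si by at least 2-fold, where 8.66% of all rows were. Their median was -2.06 and their range -2.85 to -1.31. The interval of the summed HIST1 reads in that comparison (-0.59 to 0.13) lay above all 28. RRM2, a subunit of the enzyme that makes deoxynucleotides, was at 138, 175, 75.5 and 24.2 FPKM, and MCM4, of the replicative helicase, was at 975, 937, 643 and 265 FPKM. Under normoxia the S-phase genes changed with TET1-si by a median of -0.03 with 1 of 28 called lower, while the summed HIST1 reads changed by -0.77. Under hypoxia both were lower with TET1-si. The S-phase median was -1.47 with 23 of 28 called lower, where 8.35% of all rows were, and the histone sum changed by -1.06. In the hypoxia response of scrambled cells all 28 S-phase genes were lower, where 46.4% of all rows were. Their median was -0.67 and their range -1.08 to -0.41, while the histone sum changed by 0.06 (-0.19 to 0.32). The summed HIST1 reads thus changed otherwise than the S-phase genes in both hypoxia responses and in the TET1-si response under normoxia. HIST1H2BH and HIST1H1C were left out of this sum, which was chosen after values were seen. After hypoxia HIST1H2BH was lower, as the S-phase genes were, at -1.16 (scrambled) and -1.44 (TET1-si). HIST1H1C was higher, at 1.00 and 1.35. What S phase contributes to the histone reads was not tested. In bulk cells, fewer cells in S phase and less histone mRNA per cell cannot be told apart.

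Of 11 genes that act on histone gene transcription, 5 were at least 2-fold lower in the hypoxia response of TET1-si cells (median -0.69), where 8.66% of all rows were, and 3 in the TET1-si response under hypoxia (median -0.41), where 8.35% of all rows were. In the hypoxia response of scrambled cells none passed 2-fold, where 12.9% of all rows were higher and 4.53% lower. E2F1, a factor of S-phase entry, was at 33.7, 34.8, 24.8 and 8.45 FPKM, and CDK2, which activates NPAT, was at 154, 113, 113 and 38.4 FPKM. HINFP, the activator of H4 genes, was at 10.2, 16.9, 11.9 and 21.4 FPKM and stayed within 2-fold in each comparison. NPAT, the coactivator of the histone locus body, was at 8.35, 7.21, 8.08 and 5.10 FPKM. CCNE2, a partner of CDK2, was at 13.8 and 28.8 FPKM in N-scr and N-si. It was the 1 gene of the 11 called higher with TET1-si under normoxia, where 12.1% of all rows were.

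Of 17 genes of histone 3′ end processing and decay, 5 were 2-fold lower in H-si than in N-si (median -0.70), where 8.66% of all rows were. Against H-scr 1 was so (median 0.02), LSM4, a ring subunit of histone mRNA decay, where 8.35% of all rows were. SLBP, which is also on the S-phase list, was at 136, 135, 85.6 and 54.6 FPKM, and ERI1, an exonuclease that trims histone mRNA ends, at 16.8, 23.4, 10.6 and 8.42 FPKM. Under normoxia none of the 17 passed 2-fold with TET1-si, where 12.1% of all rows were higher and 5.56% lower. What these genes contribute to the histone reads was not tested. None of the 15 genes of canonical polyadenylation passed 2-fold in any comparison, with medians of -0.30 to 0.20. Of all rows 12% to 12.9% were higher and 4.53% to 8.66% lower in the 4 comparisons. Of 16 histone chaperones, 7 were 2-fold lower in H-si than in N-si, where 8.66% of all rows were. Among them were ASF1B and CHAF1A, which hand new H3 and H4 to replicating DNA.

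Histone genes outside the clusters were read from 12 of 13 listed rows. In the hypoxia response of TET1-si cells 3 were called lower, H2AFZ, H2AFX and CENPA, and 2 higher, H1F0 and HIST4H4. Of all rows 8.66% were lower and 12.5% higher there. H2AFZ, the main H2A.Z gene, was at 1022, 910, 556 and 317 FPKM and H3F3B, which encodes H3.3, at 884, 664, 698 and 556 FPKM. Both exceeded every clustered member in each library. The clustered values reflect a minority form of most members, so total mRNA levels cannot be ranked from this. HIST4H4, a single-copy H4 gene, was at 3.33, 1.62, 5.12 and 5.19 FPKM.

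Because clustered histone mRNAs mostly lack a poly(A) tail, other RNAs without one were set beside them. Of 300 rows listed, many of them copies named 7SK, 14 had a mean of at least 1 FPKM. In the TET1-si response under normoxia 7 of the 14 were called lower and 3 higher, against 5.56% and 12.1% of all rows. The median was -0.62. Under hypoxia 1 was lower and 3 higher, against 8.35% and 12% of all rows, with a median of -0.32. SNORD3A, the U3 snoRNA, was at 137, 67.5, 105 and 64.3 FPKM, RMRP, the RNA of RNase MRP, at 17.4, 7.46, 22.4 and 14.1, and RPPH1, of RNase P, at 7.04, 1.19, 9.28 and 3.89. These 3 RNAs were lower in each TET1-si library than in the scrambled library of its oxygen state, like the histone sum, while RN7SL2, of the signal recognition particle, was higher at 136, 221, 152 and 173 FPKM. The part of RNA without a poly(A) tail in the fall of the HIST1 reads was not tested.

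Genes next to the HIST1 cluster did not fall with it. Over 32 rows within 500000 bp, the median change with TET1-si was 0.20 (hypoxia) and 0.10 (normoxia). In these states 2 and 1 rows were called lower, against 8.35% and 5.56% of all rows.

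**Figure D5:**
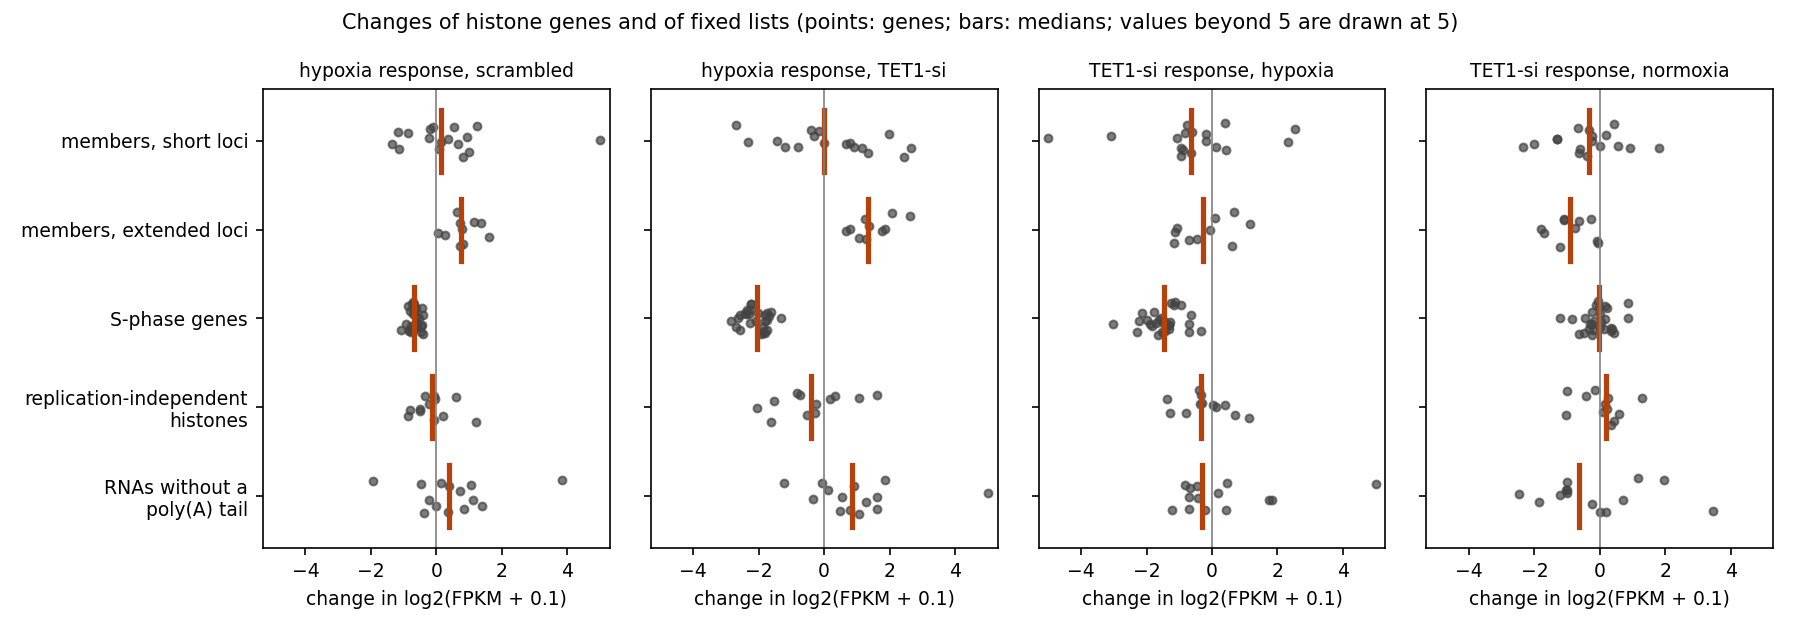
Change in log2(FPKM + 0.1) of the 17 short and 10 extended histone genes, 28 S-phase genes, 12 replication-independent histone genes and 14 RNAs without a poly(A) tail, 1 panel per comparison, with points for rows, bars for medians and values beyond 5 drawn at 5. In the hypoxia response of TET1-si cells the S-phase genes lie at a median of -2.06 and the extended histone genes at 1.33, while in the TET1-si response under normoxia the S-phase genes lie at -0.03 and the extended histone genes at -0.92.

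HIST1H2APS3, a pseudogene of 134 bp listed at 19.6 FPKM in H-scr on 8 reads and at 0 in the other 3 libraries, and HIST1H2AL, an H2A gene at 1.70, 1.02, 1.81 and 0.124 FPKM on 14, 9, 16 and 1 reads, had the largest falls of any passing member in the TET1-si response under hypoxia. HIST1H3G, an H3 gene at 1.55, 1.77, 3.05 and 1.40 FPKM on at most 19 reads, was the last of the 6 called there. HIST1H2BG, an H2B gene at 5.28, 1.23, 4.58 and 2.88 FPKM, had a TET1-si response of -2.01 under normoxia (-3.54 to -0.87) on 28 and 7 reads. HIST1H4J, the H4 member with the highest level, was at 5.16, 4.32, 6.60 and 3.88 FPKM, with intervals that include 0 in all 4 comparisons.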

How the data were processed

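RNA of 4 FaDu libraries was sequenced from TruSeq mRNA libraries with 100 bp reads, single end per the labels and paired end per the methods. The authors aligned reads to hg19 and deposited FPKM per Ensembl gene from TopHat and Cufflinks, versions not given in the sources used here. Members and lists were chosen with earlier results of these data known. Changes are differences of log2(FPKM + 0.1), which understates low genes, over rows with a mean of at least 1 FPKM. Whole reads were recovered from single-exon rows with the effective length of a fragment distribution of mean 200 and SD 80 bp, at the depth that made 89.9% to 91.2% of low values whole within 0.05. Ratios of reads carry exact (Clopper-Pearson) 95% intervals, and the scripts were tested on simulated data. Named were the 10 highest members, H1 genes, the 3 largest changes in each direction, members called in both states, and the leading genes of each list. TRIM11, RNF187, NPAT, SLBP, H1FX, H2AFX, RMRP and the low H1 genes were named after their values were seen. Stem-loops were read from hg19 and 5 members had no match in the annotation. Python 3.11.15, pandas 2.3.3 and scipy 1.17.1 were used. Alternatives covered the pseudocount, the minimum level, median-of-ratios scaling, TPM, and leaving out pseudogenes and identical copies.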

Additional observations from a re-analysis of the deposited data

How the results depend on the processing

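Counts of members called depended on the minimum level and the pseudocount. With a pseudocount of 1, lower calls became 1 (hypoxia, scrambled), 2 (hypoxia, TET1-si) and 2 (TET1-si, hypoxia), and 8 were higher in the hypoxia response of TET1-si cells. Of all rows 3.23%, 7.06% and 6.61% were lower in these comparisons, and 8.56% were higher in the last-named response. With no minimum mean FPKM, over all 87 members, 15 were higher and 10 lower (hypoxia, scrambled, with a median of 0), 23 and 16 (hypoxia, TET1-si), 6 and 24 (TET1-si, hypoxia), and 3 and 25 (TET1-si, normoxia). Of all 61845 rows, of which 28033 were above 0 in any library, the shares in the same order were 7.30% and 2.67%, 7.77% and 3.77%, 6.83% and 4.99%, and 5.98% and 3.72%. With a minimum of 5, which left 8 members, hypoxia gave 3 higher, 1 lower and a median of 0.84 (scrambled) and 6, 1 and 1.91 (TET1-si), and TET1-si gave 2 higher, 0 lower and a median of 0.0037 under hypoxia, against -0.62 as reported, and 4 lower under normoxia; fewer genes entered. Median-of-ratios scaling gave 10 lower for TET1-si under hypoxia and sums of 252.6 in N-scr and 428.7 in H-si. TPM left 33 members. It gave 9 higher in the hypoxia response of scrambled cells and 2 higher for TET1-si under normoxia, where 16.3% and 13.9% of all rows were. Its sums were 281.8, 242.8, 411.4 and 651.4. The cause of these moves was not tested. The other 50 alternative values of counts, medians and sums stayed within 1.5-fold, the interval of the median or the counting error. Signs changed for 4 gene values near 0 whose intervals include 0: median-of-ratios scaling turned HIST1H3D and HIST1H2AL (hypoxia, scrambled) to -0.06 and -0.02 and HIST1H2BD (TET1-si, hypoxia) to -0.06, and TPM turned HIST1H1PS1 (hypoxia, scrambled) from -0.10 to 0.02. No paired analysis was possible because each group had 1 library, and no replicate could be left out. Depth limits most members: 32 of 52 short coding loci held under 20 reads in all 4 libraries together.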
